A study of Nematostella vectensis with 84 samples.

Results

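Neural 0 was the smallest of the 5 broad clusters of neural cells that the authors set apart among the sorted cells of the starlet sea anemone, Nematostella vectensis. Its members were the cells that the authors' deposited cell table lists under that name. There were 155 of them among 12352 cells (1.25%), and among the 5309 cells of all broad clusters named Neural they made up 2.92%. The other Neural clusters held 3527 (Neural 1), 768 (Neural 2), 371 (Neural 3) and 488 (Neural 4) cells. Neural 0 consisted of 1 fine cluster, number 27 of the authors' clustering, which the authors annotated Neural 0 - Prdm14d. By number of cells it ranked 28 of 45 fine clusters and 12 of 13 broad clusters, and among the broad clusters Muscle, with 124 cells, was smaller.

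The cells came from adult animals 6 to 8 weeks old, each heterozygous for a stable transgene in which the Elav, the FoxL2 or the SoxC driver controls KikGR. KikGR fluoresces green when first made, and illumination turns it red. Animals were photoconverted, and the body wall with mesenteries was dissociated 2, 4 or 7 days later. Sorted single cells were sequenced by the MARS-seq method, in which each cell sits in a well of its own, in 84 libraries that each hold the odd or the even wells of a 384-well plate. There were 27 dissociations, which are the replicates here. In Elav animals 4 dissociations received 1% DMSO and 4 have no treatment in the labels, called untreated below. In FoxL2 animals 5 received DMSO and 5 were untreated, and all 9 SoxC dissociations received DMSO. The labels do not say how many animals went into a dissociation, and they give no group without a transgene. Only cells positive for the reporter were sorted per the labels, so Neural 0 cells that a driver does not mark lie outside these data.

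Neural cells of sea anemones form a nerve net that spreads through both epithelial layers without a brain. In Nematostella, neurons, stinging cells and gland cells share progenitors that express SoxC, a Sox family transcription factor gene. Elav encodes an RNA-binding protein whose reporter is known in Nematostella for marking a large subset of neurons, and FoxL2 is a forkhead transcription factor gene. Prdm14d, the gene in the annotation of the cluster, belongs to the family of PR domain zinc finger transcription factors, and in Nematostella it is known for its expression in progenitors and subsets of neurons. No molecule counts were used, and the label could not be checked against Prdm14d or any other marker gene. The gene annotation holds 4 genes whose product is named PR domain zinc finger protein 14. On the assembly jaNemVect1.1 these are LOC5515903 on chromosome 1 (13581403 to 13588027, plus strand), LOC5513144 on chromosome 2 (21679631 to 21690044, minus strand), and LOC5518378 (8194556 to 8201934) and LOC5504051 (16308236 to 16335303) on the plus strand of chromosome 11. The files do not pair the name Prdm14d with any of the 4.

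Neural 0 was rare but widely spread. Its cells occurred in 25 of 27 dissociations, on 40 of 44 plates and in 63 of 84 libraries, with at most 7 in 1 library and 11 on 1 plate. A dissociation held 245 to 995 cells (median 363), of which 56 to 643 were Neural cells, so a share in 1 dissociation rests on few Neural 0 cells, from 0 to 21. On the 40 plates with both libraries, the odd and the even wells differed by 0.0121 percentage points in their share of Neural 0 cells (sign-flip permutation test, p = 0.952). The well lists cover 76 libraries in 4 demultiplexing pools and repeat 0 barcodes within a pool, and 0 plate and well names occur more than once in the cell table. In the cell table, 0 cells had a driver, day, dissociation or medium that went against the labels. The wells of all 9 untreated dissociations stand in 1 pool that holds no DMSO dissociation, so medium and pool cannot be told apart.

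Which reporter line carried Neural 0 cells was the first question. FoxL2 animals gave most of them, and their share was higher in FoxL2 than in SoxC dissociations, of all cells and of Neural cells. Of the 155 cells, 27 (17.4%) came from Elav, 110 (71.0%) from FoxL2 and 18 (11.6%) from SoxC animals, out of 2764, 6137 and 3451 cells in the same order of lines. Neural 0 made up 0.981% ± 0.782 of all cells in Elav dissociations (SD, n = 8), 1.75% ± 0.411 in FoxL2 dissociations (SD, n = 10) and 0.515% ± 0.446 in SoxC dissociations (SD, n = 9).

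In single Elav dissociations the share of all cells was 0 (of 296 cells, which allows up to 1.01%), 1.39% and 2.63% on day 2, 0.678% and 1.05% on day 4, and 0.551%, 0.935% and 0.608% on day 7. In FoxL2 dissociations it was 2.04%, 1.70%, 2.14% and 1.62% on day 2, 2.21%, 2.00%, 1.07% and 2.11% on day 4, and 1.21% and 1.41% on day 7. In SoxC dissociations it was 0.326% on day 2, 0.327%, 0 (of 245 cells, which allows up to 1.22%) and 0.180% on day 4, and 0.331%, 0.671%, 0.324%, 1.16% and 1.31% on day 7. All 10 FoxL2 values were above 1%, the Elav values ran from none to the highest of all 27 dissociations, and 7 of the 9 SoxC values were under 1%. The FoxL2 values overlapped with those of both other lines. The spread between dissociations was 0.782 percentage points in Elav, 0.411 in FoxL2 and 0.446 in SoxC, against 0.541, 0.560 and 0.386 expected from counting cells alone.

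**Figure D1:**
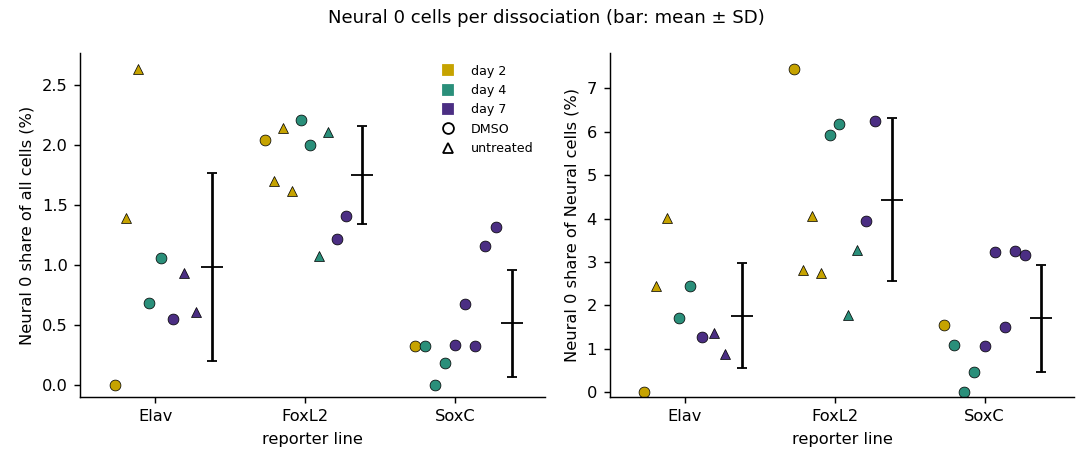
Neural 0 cells per dissociation as a percent of all cells (left) and of Neural cells (right), by reporter line. Each point is 1 dissociation, coloured by day, with circles for DMSO and triangles for untreated, and bars show the mean ± SD; FoxL2 means are 1.75% and 4.44%, above the Elav means of 0.981% and 1.77% and the SoxC means of 0.515% and 1.70%.

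Driver labels were exchanged over dissociations in two-sided exact permutation tests, with Benjamini-Hochberg adjustment over the 13 broad clusters and 3 pairs of lines. The share of all cells was 0.769 percentage points lower in Elav than in FoxL2 dissociations (difference -0.769, exact permutation p = 0.0173, adjusted p = 0.0307). At the same threshold, 38.5% of the broad clusters differed between these lines. This call was lost in dissociations compared within day and medium (difference -0.751, adjusted p = 0.104), in the KikGR+ gate alone (-0.665, adjusted p = 0.104), with at least 300 cells per dissociation (-0.594, adjusted p = 0.143) and in untreated dissociations alone (-0.335, adjusted p = 0.675). In DMSO dissociations alone it was -1.20 points (adjusted p = 0.0387). Leaving out any of 6 dissociations also ended it, with an adjusted p of 0.0519 without FoxL2 dissociation 14, 0.0513 without FoxL2 dissociation 18, 0.0673 without Elav dissociation 22, 0.0551 without Elav dissociation 23, 0.0571 without Elav dissociation 26 and 0.0564 without Elav dissociation 27. Elav exceeded SoxC by 0.467 points, a difference short of the threshold (exact permutation p = 0.142, adjusted p = 0.198), whereas 61.5% of broad clusters did. FoxL2 exceeded SoxC by 1.24 points, with a mean 3.4 times that of SoxC (exact permutation p = 8.66e-05, adjusted p = 0.000602), and 69.2% of broad clusters differed there. Without any 1 of the 19 dissociations that difference lay between 1.17 and 1.34 points, with adjusted p between 0.000535 and 0.00100. Compared within day and medium it was 1.27 points (exact permutation test, adjusted p = 0.0325). In the KikGR+ gate of the DMSO dissociations it was 1.05 points (exact permutation test, adjusted p = 0.0109).

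The total of Neural cells was then used in place of all cells. Neural cells of all 5 clusters were 54.3% ± 12.1 of all cells in Elav (SD, n = 8), 44.7% ± 16.1 in FoxL2 (SD, n = 10) and 29.2% ± 8.24 in SoxC dissociations (SD, n = 9). In DMSO dissociations alone these shares were 43.7% ± 3.71 in Elav (SD, n = 4), 30.1% ± 5.53 in FoxL2 (SD, n = 5) and 29.2% ± 8.24 in SoxC (SD, n = 9), so FoxL2 and SoxC differed by less than the spread between dissociations. Among Neural cells only, Neural 0 made up 1.77% ± 1.21 in Elav, 4.44% ± 1.88 in FoxL2 and 1.70% ± 1.23 in SoxC dissociations. The lowest and highest FoxL2 values were 1.79% and 7.43%, the Elav values reached at most 4.02% and the SoxC values at most 3.26%. Elav was lower than FoxL2 (difference -2.67 points, exact permutation p = 0.00382, adjusted p = 0.00572 over 5 clusters and 3 pairs), and 80% of the Neural clusters differed between these lines. In DMSO dissociations alone the difference was -4.58 points (exact permutation test, adjusted p = 0.0170), and in untreated dissociations alone it was -0.752 points, short of the threshold (adjusted p = 0.349). In the KikGR+ gate of the DMSO dissociations it was -3.70 points (exact permutation test, adjusted p = 0.0149). FoxL2 was higher than SoxC (2.73 points, exact permutation p = 0.00210, adjusted p = 0.00394), and again 80% of the Neural clusters differed. All SoxC dissociations received DMSO, and against DMSO FoxL2 dissociations alone the difference was 4.24 points (exact permutation test, adjusted p = 0.00375). All SoxC cells came from the KikGR+ gate, and in that gate of the DMSO dissociations the difference was 3.35 points (exact permutation test, adjusted p = 0.00375). Within day and medium, over all gates, it was 4.27 points (exact permutation test, adjusted p = 0.0119). With at least 100 Neural cells per dissociation, which leaves 4 SoxC dissociations, the difference was 2.13 points and did not pass (exact permutation test, adjusted p = 0.0935). Elav and SoxC differed by 0.0652 points (exact permutation p = 0.913, adjusted p = 0.913), where 60% of the Neural clusters differed.

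The other Neural clusters followed other orders of the lines. Neural 1 averaged 80.3% of Neural cells in Elav, 67.1% in FoxL2 and 39.3% in SoxC dissociations, and Neural 2 averaged 15.4%, 13.0% and 14.8%. Neural 3 averaged 1.85%, 6.01% and 20.1%, and Neural 4 averaged 0.635%, 9.42% and 24.1%. Neural 0 was the one Neural cluster whose mean was highest in FoxL2, both of all cells and of Neural cells. These means sum to the whole within a line, so the share of 1 cluster depends on the others. With Neural 1 left out of the total, Neural 0 was 1.31 points higher in Elav than in SoxC dissociations (exact permutation test, adjusted p = 0.0379), and its difference between Elav and FoxL2 was -0.720 points and did not pass (exact permutation test, adjusted p = 0.324).

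Whether the share changed with the time since photoconversion was tested next. No trend passed the test. In Elav dissociations Neural 0 averaged 1.34% ± 1.32 of all cells on day 2 (SD, n = 3), 0.866% ± 0.266 on day 4 (SD, n = 2) and 0.698% ± 0.207 on day 7 (SD, n = 3). In FoxL2 dissociations the means were 1.87% ± 0.253 (SD, n = 4), 1.85% ± 0.524 (SD, n = 4) and 1.31% ± 0.138 (SD, n = 2) on days 2, 4 and 7. In SoxC dissociations the single value on day 2 was 0.326%, and the means were 0.169% ± 0.164 on day 4 (SD, n = 3) and 0.760% ± 0.460 on day 7 (SD, n = 5). Day 7 was the lowest day in Elav and FoxL2 and the highest in SoxC by the mean. Values of day 7 overlapped with those of day 4 in all lines, and with those of day 2 in Elav and SoxC. In FoxL2 the day 7 values (1.21% and 1.41%) lay under all day 2 values (1.62% to 2.14%). The slope common to the lines was -0.0421 percentage points per day (permutation of days within lines, p = 0.50, adjusted p = 0.777). Of the 13 broad clusters 0% passed, with 1 at an unadjusted p under 0.05. The difference of slopes between lines was not past the threshold either (F = 2.39, permutation p = 0.116, adjusted p = 0.376), again with 0% of clusters called and 1 at an unadjusted p under 0.05. Without Elav dissociation 22 it was larger (F = 5.95, permutation p = 0.00994, adjusted p = 0.129), as it was with at least 300 cells per dissociation (F = 7.39, permutation p = 0.00623, adjusted p = 0.0810) and in DMSO dissociations alone (F = 4.08, permutation p = 0.0384, adjusted p = 0.166). Of Neural cells the slope was 0.0886 points per day (permutation p = 0.553, adjusted p = 0.902), and 20% of the Neural clusters passed. The FoxL2 line has no untreated dissociation on day 7, and SoxC has 1 dissociation on day 2.

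Medium was compared within the lines and days that hold both kinds, which leaves 14 dissociations, in 4 combinations of line and day and none of SoxC. Neural 0 made up 0.275% ± 0.390 of all cells in DMSO Elav dissociations (SD, n = 2) and 1.39% ± 0.887 in untreated ones (SD, n = 4). In FoxL2 dissociations it was 2.08% ± 0.110 with DMSO (SD, n = 3) and 1.73% ± 0.436 untreated (SD, n = 5). Pooled within line and day, DMSO minus untreated was -0.263 points of all cells (exact permutation p = 0.551, adjusted p = 0.647, smallest possible p = 0.00463), and 30.8% of the broad clusters differed.

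Of Neural cells, Neural 0 was 0.633% ± 0.895 in DMSO Elav dissociations and 2.18% ± 1.39 in untreated ones. In FoxL2 dissociations it was 6.50% ± 0.811 with DMSO and 2.93% ± 0.826 untreated. On the shared days the FoxL2 groups did not overlap over all gates, with 5.91% to 7.43% in DMSO and 1.79% to 4.06% in untreated dissociations. In the KikGR+ gate alone they did overlap. There the DMSO values were 5.32%, 5.91% and 3.87% in dissociations 11, 14 and 15. The untreated values were 1.61%, 3.30% and 3.96% in dissociations 10, 12 and 13. The single DMSO values of Elav were 0 on day 2 (of 144 Neural cells, which allows up to 2.08%) and 1.27% on day 7. The pooled difference was 1.5 points (exact permutation p = 0.148, adjusted p = 0.185), and 60% of the Neural clusters passed. In the KikGR+ gate alone the pooled difference was 0.371 points (exact permutation test, adjusted p = 0.843). The pooled difference over all gates passed without Elav dissociation 22, which holds no Neural 0 cell (2.80 points, exact permutation test, adjusted p = 0.0347). Dissociation 22 is the only DMSO dissociation of Elav day 2, so untreated Elav dissociations 20 and 21 left the comparison with it.

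The medium effect was then compared between lines, a test chosen after the values above were seen. DMSO minus untreated was 3.82 points of Neural cells in FoxL2 and -1.55 points in Elav. The difference of 5.37 points passed (Freedman-Lane permutation of residuals, p = 0.00120, adjusted p = 0.00600), as 1 of the 5 Neural clusters, or 20%. In the KikGR+ gate alone the FoxL2 value was 2.08 points, the Elav value -1.55 points, and their difference of 3.63 points did not pass (permutation test, adjusted p = 0.242). Without FoxL2 dissociation 11 the difference was 5.06 points and its adjusted p 0.0590. Of all cells the difference was 1.5 points and did not pass (permutation p = 0.0508, adjusted p = 0.250), with 0% of broad clusters called and 1 at an unadjusted p under 0.05.

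Several things moved with medium. All Neural cells were 43.7% ± 3.71 of all cells in DMSO (SD, n = 4) and 64.8% ± 5.52 in untreated Elav dissociations (SD, n = 4). In FoxL2 dissociations they were 30.1% ± 5.53 with DMSO (SD, n = 5) and 59.3% ± 4.30 untreated (SD, n = 5). Every cell from the epithelial-depleted gate came from untreated FoxL2 dissociations and every cell from the gate named new came from DMSO FoxL2 dissociations. The part of the total of Neural cells and of the pool in the difference was not tested.

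**Figure D2:**
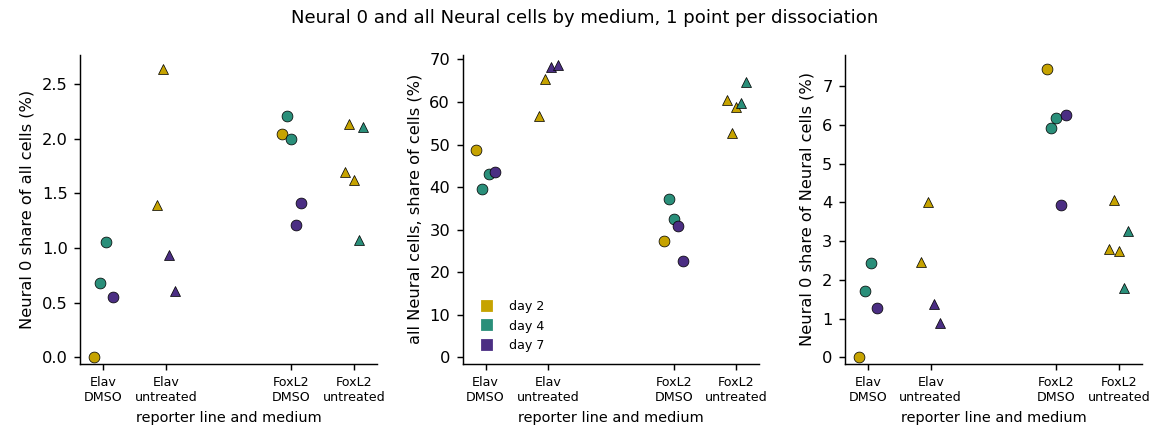
Neural 0 share of all cells (left), share of all cells in any Neural cluster (middle) and Neural 0 share of Neural cells (right) in percent, by line and medium, with 1 point per dissociation. FoxL2 dissociations with DMSO hold fewer Neural cells (30.1% against 59.3% untreated), while their Neural 0 share of all cells overlaps with the untreated values.

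The sorting gates were compared in the FoxL2 line, since all Elav and SoxC cells came from the KikGR+ gate. Of the Neural 0 cells, 47 came from the epithelial-depleted gate, 17 from the gate named new and 91 from the KikGR+ gate. In FoxL2 dissociations Neural 0 made up 1.83% ± 0.663 of the cells in the epithelial-depleted gate (SD, n = 5), 2.59% ± 0.0356 in the new gate (SD, n = 2) and 1.65% ± 0.511 in the KikGR+ gate (SD, n = 8). Of Neural cells it made up 3.08% ± 1.14, 10.1% ± 0.248 and 4.27% ± 1.52 in these gates.

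In 3 untreated dissociations both the epithelial-depleted and the KikGR+ gate were sorted. The epithelial-depleted gate held 2.55%, 0.805% and 2.04% Neural 0 cells in dissociations 10, 12 and 13, and the KikGR+ gate held 0.952%, 1.91% and 2.47%. The epithelial-depleted gate was thus higher in 1 of 3 dissociations. The mean difference was 0.0227 points of all cells and -0.0942 points of Neural cells (exact sign-flip permutation test, p = 1 for both, smallest possible p = 0.25), and 0% of the broad and 0% of the Neural clusters passed, with 0 at an unadjusted p under 0.05. In 2 DMSO dissociations the new gate held more than the KikGR+ gate, with 2.61% against 1.51% of all cells in dissociation 11 and 2.56% against 1.5% in dissociation 15. Of Neural cells the new gate held 9.88% and 10.2% in these dissociations, against 5.32% and 3.87% in the KikGR+ gate. These are values with no test, since sign flips of 2 dissociations cannot reach the threshold.

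**Figure D3:**
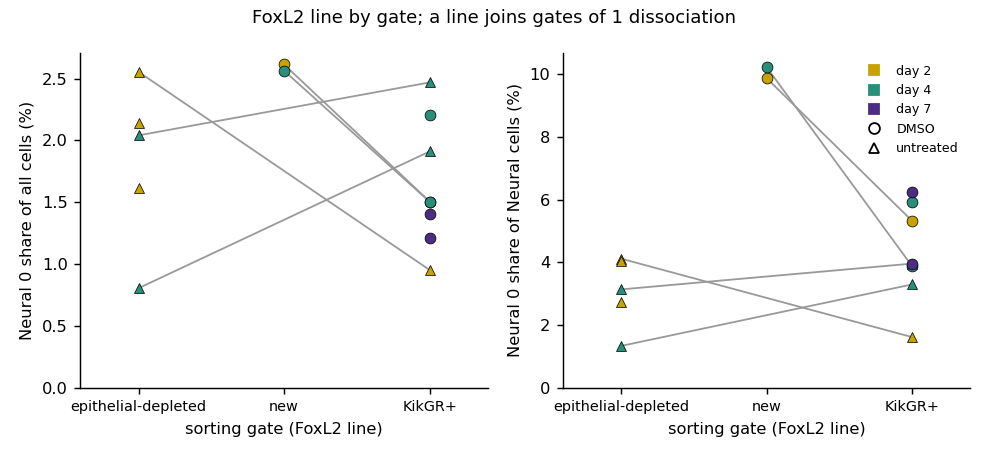
Neural 0 share of all cells (left) and of Neural cells (right) in percent in each gate of the FoxL2 line, with lines joining the gates of 1 dissociation. The new gate lies above the KikGR+ gate in both dissociations that have it (10.2% against 3.87% of Neural cells in dissociation 15), whereas the lines from the epithelial-depleted gate run both ways.

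The reporter colour of a cell was classed by the authors as green, orange or red. Orange was read here as both colours in 1 cell, and the rule behind the classes is not given in the sources used here. After illumination, new reporter protein is green, so green stands for reporter made since then only where all earlier protein was converted, which could not be examined. A class was given for 91 of the 155 Neural 0 cells, all from the KikGR+ gate, and for none of the 64 others, all of the FoxL2 line. Pooled over lines, 7 Neural 0 cells were green (7.69%), 63 orange (69.2%) and 21 red (23.1%). Of the 3372 other Neural cells with a class 16.5% were green, 46.1% orange and 37.4% red.

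The classes were then counted by line. In Elav animals 3 of 27 Neural 0 cells were green (11.1%), 10 orange (37.0%) and 14 red (51.9%), against 24.0%, 56.9% and 19.1% of 1433 other Neural cells. In FoxL2 animals 0 of 46 were green (which allows up to 6.52%), 44 orange (95.7%, Wilson 95% interval 85.5% to 98.8%) and 2 red (4.35%), against 3.69%, 51.1% and 45.2% of 949 other Neural cells. In SoxC animals 4 of 18 were green (22.2%), 9 orange (50%) and 5 red (27.8%), against 18.1%, 25.6% and 56.4% of 990 other Neural cells. In FoxL2 animals the broad cluster with the next highest pooled orange share was Progenitor, with 79.2% (Wilson 95% interval 72.8% to 84.5%). These intervals cover counting error only, and cells of 1 dissociation are not independent.

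**Figure D4:**
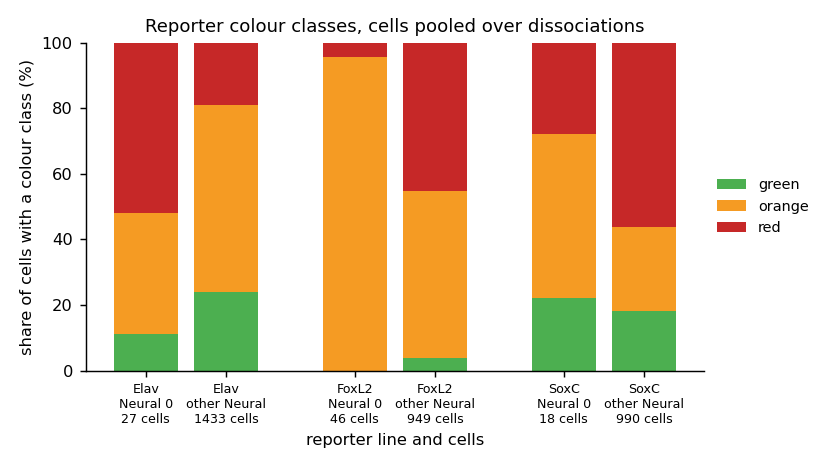
Reporter colour classes as a percent of the cells with a class, pooled over dissociations, for Neural 0 and the other Neural cells of each line. Orange fills 95.7% of the FoxL2 Neural 0 bar against 51.1% for other Neural cells, and red fills 51.9% of the Elav Neural 0 bar against 19.1%.

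By day, the Elav Neural 0 cells were 0 green, 3 orange and 9 red on day 2, 0, 6 and 2 on day 4, and 3, 1 and 3 on day 7. The FoxL2 cells were 0, 8 and 0 on day 2, 0, 24 and 1 on day 4, and 0, 12 and 1 on day 7. The SoxC cells were 1, 1 and 0 on day 2, 0, 1 and 1 on day 4, and 3, 7 and 4 on day 7. Green Elav Neural 0 cells were seen on day 7 only. However, 0 of 12 cells on day 2 allows up to 25% green, and 0 of 8 on day 4 allows up to 37.5%. The other Elav Neural cells were 9.71%, 15.0% and 41.0% green on days 2, 4 and 7. FoxL2 Neural 0 cells were almost all orange on each day.

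Tests over dissociations used those with at least 5 coloured Neural 0 cells, which were 2 in Elav, 5 in FoxL2 and 1 in SoxC. Of these 8 only SoxC dissociation 8 had green Neural 0 cells (33.3%). The slope of the green share over days could therefore only be 0 (permutation p = 1), and it says nothing of a trend. Of the broad clusters 46.2% passed. The cut also leaves out every Elav dissociation of day 7, the day of all 3 green Elav Neural 0 cells. With at least 3 coloured cells the slope was 2.56 points per day and did not pass (permutation p = 0.250, adjusted p = 0.296). For the same reason the green share differed by 0 points between Elav and FoxL2 (exact permutation p = 1, 25% of clusters called). With at least 3 coloured cells Elav minus FoxL2 was 8.33 points and did not pass (exact permutation test, adjusted p = 0.421). Elav minus SoxC and FoxL2 minus SoxC were both -33.3 points, which rest on the 2 green of 6 coloured cells in SoxC dissociation 8 and which no permutation of so few dissociations could bring past the threshold. With at least 3 coloured cells these differences were -8.33 and -16.7 points. Over all broad clusters, 0% were called between Elav and SoxC, with 0 at an unadjusted p under 0.05, and 53.8% between FoxL2 and SoxC. Against the other Neural cells of the same dissociations, Neural 0 differed by -3.62 points in green share (exact sign-flip permutation p = 0.227, adjusted p = 0.577, n = 8; 0% of Neural clusters called, 0 at an unadjusted p under 0.05). In red share the difference was -17.2 points (exact sign-flip permutation p = 0.125, adjusted p = 0.208, n = 8; 20% called). In the pooled cells the red share of Neural 0 was above that of other Neural cells in Elav and below it in FoxL2 and SoxC.

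Each line was therefore also compared alone, with all dissociations that have a coloured Neural 0 cell. These comparisons were chosen after the pooled classes were seen. In FoxL2 the orange share of Neural 0 was 100% in dissociations 10, 11, 12, 13, 14 and 17, 83.3% in dissociation 15 and 85.7% in dissociation 16, where each dissociation has 3 to 12 coloured Neural 0 cells. The other Neural cells of the same dissociations were 25.6%, 63.2%, 26.4%, 34.4%, 47.6% and 53.3% orange in dissociations 10, 11, 12, 13, 14 and 17, 60.4% in dissociation 15 and 73.5% in dissociation 16. Neural 0 was higher in 8 of 8, with means of 96.1% ± 7.19 for Neural 0 and 48.1% ± 17.8 for other Neural cells (SD, n = 8) and a mean difference of 48.1 points (exact sign-flip permutation p = 0.00781, the smallest possible, adjusted p = 0.0391 over 5 clusters). Of the Neural clusters 20% passed in this comparison. The red share was 44.1 points lower (difference -44.1, exact sign-flip permutation test, adjusted p = 0.0391; 20% called). The green share was 0 for Neural 0 in all 8 dissociations and averaged 3.98% for other Neural cells. This difference of -3.98 points passed (exact sign-flip permutation test, adjusted p = 0.0195; 40% called). However, 0 of 46 cells allows up to 6.52%, which is above the mean of the other Neural cells. With 3 to 12 coloured Neural 0 cells per dissociation, values of 0 can come from low counts alone. The test therefore cannot tell a lower green share from too few cells. Without any 1 of the 8 dissociations the orange difference was 44.3 to 53.2 points, with an adjusted p of 0.0781, since 7 dissociations allow no smaller p. It was 34.2 points in the 5 DMSO dissociations (exact sign-flip permutation test, adjusted p = 0.156) and 71.2 points in the 3 untreated ones (exact sign-flip permutation test, adjusted p = 0.417).

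In Elav the red share was 47.6% ± 29.2 for Neural 0 and 18.8% ± 15.7 for other Neural cells (SD, n = 7). Neural 0 was higher in 6 of 7 dissociations, by 28.8 points on average, which did not pass after adjustment (exact sign-flip permutation p = 0.0469, adjusted p = 0.0781), where 40% of Neural clusters passed. In SoxC the orange share was 54.2% ± 42.5 for Neural 0 and 25.6% ± 7.15 for other Neural cells (SD, n = 8), higher in 6 of 8 dissociations and not past the threshold (exact sign-flip permutation p = 0.117, adjusted p = 0.293; 0% called, 1 at an unadjusted p under 0.05). Of these SoxC dissociations, 6 have 1 or 2 coloured Neural 0 cells. Whether the colour difference itself differed between lines was not tested.

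**Figure D5:**
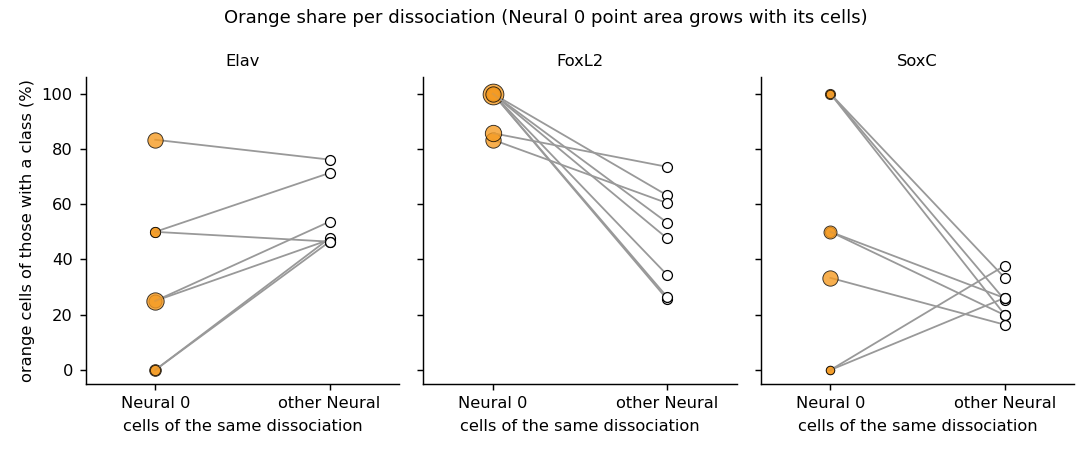
Orange share in percent of the cells with a colour class, for Neural 0 and the other Neural cells of the same dissociation, with 1 line per dissociation and the area of the Neural 0 points growing with their number of cells. All 8 FoxL2 lines fall from Neural 0 to the other Neural cells, with means of 96.1% and 48.1%.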

How the data were processed

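The authors' deposited cell table gives categories per cell (line, day, gate, medium, dissociation, cluster, colour class) and no counts of molecules. STARsolo and STAR 2.7.10b are named in the submitters' processing notes, and a Seurat clustering per the file headers. Cell filters, doublet removal, clustering settings and the colour rule are not given in the sources used here. Each half-plate library was assigned by its labels, and the dissociation was the replicate. Shares were computed per dissociation in percent (Python 3.11.15, numpy 2.4.6, pandas 2.3.3, scipy 1.17.1, figures with matplotlib 3.10.9). Most tests were two-sided and permuted labels or signs over dissociations, exactly or with 100000 resamples (smallest p 1e-05), with Benjamini-Hochberg adjustment and a threshold of 0.05. The half-plate test flipped signs over plates. The line by day test permuted residuals and counted values of F at or above the one observed. The fits covered all clusters, of which Neural 0 is reported, with the other Neural clusters beside it. Simulated data were run only for shares of all cells, in a comparison of lines, the slope over days and the medium difference. Limits on recovered and false calls were set for the lines and the slope, and none for the medium difference. The gate, colour, line by day and medium by line tests were not simulated. Intervals are Wilson 95%, and a count of 0 allows up to 3 counts. Nothing in the labels says that dissociations came from separate animals, so p-values measure the spread between dissociations. The members, lists and tests were chosen with earlier results of these data known. Alternatives were a logit scale (0.5 cells added), plates weighted equally, single gates or media, at least 300 cells (100 Neural cells), no Neural 1, other strata, day 7 against day 2, at least 3 or 10 coloured cells, green with orange, and each dissociation left out. The KikGR+ gate of DMSO dissociations, single-line colour tests and the medium effect by line were added after seeing the data.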

Additional observations from a re-analysis of the deposited data

Results flagged for a closer look

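One result stood out because the same contrast went different ways in 2 lines. DMSO minus untreated, as a share of Neural cells, was higher by 5.37 percentage points in FoxL2 than in Elav dissociations (3.82 in FoxL2 and -1.55 in Elav, 14 dissociations, Freedman-Lane permutation p = 0.00120, adjusted p = 0.00600). The KikGR+ gate alone gave 3.63 points (adjusted p = 0.242), leaving out FoxL2 dissociation 11 gave 5.06 points (adjusted p = 0.0590), and the logit scale gave 1.99 (adjusted p = 0.0444). The Elav value rests on DMSO dissociations 22 and 27, which hold 0 and 2 Neural 0 cells. In dissociation 22, 0 of 144 Neural cells allows up to 2.08%, so the direction in Elav is uncertain. Of all cells the difference between lines was 1.5 points and did not pass (permutation test, adjusted p = 0.250). Medium cannot be told apart from pool, and the gates differed with it. None of 16 groups of dissociations examined held a sample far from the rest.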

How the results depend on the processing

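Leaving aside the single-line colour comparisons, 554 alternatives were run. Of these 497 kept the direction and the side of the threshold, 15 lost the call, 2 gained it and 40 changed sign. All changes of sign were in results that did not pass. Many of the 497 could not differ, since leaving out a dissociation that a comparison does not use repeats the same result. The count of 497 is therefore no measure of robustness. Of the alternatives to the FoxL2 orange difference 20 kept the call and 11 lost it. Those that kept it used the same 8 dissociations and the same cells, so they could not change the result. Every alternative that took any of these dissociations out lost the call. The Elav red difference stayed short of the threshold in all 30. On the logit scale the slope was 0.0376 per day of all cells, Elav minus SoxC of Neural cells -0.130, the epithelial-depleted minus KikGR+ gate -0.0912, the green share against other Neural cells 0.247 and the half-plates -0.0221. With equal weight per plate the gate difference was -0.0268. In DMSO dissociations alone the slope was 0.0297, Elav minus SoxC of Neural cells -0.348 (also in their KikGR+ gate, -0.348) and the half-plates -0.143. In untreated dissociations alone Elav minus FoxL2 was -0.335 of all cells and -0.752 of Neural cells, and the Neural slope -0.408. In the KikGR+ gate alone Elav minus FoxL2 was -0.665 and the medium difference between lines 3.63. With at least 300 cells (100 Neural cells), Elav minus FoxL2 was -0.594 and lost its call, DMSO minus untreated 0.220, Elav minus SoxC of Neural cells -0.339, FoxL2 minus SoxC 2.13 and the Neural slope -0.0145. Without Neural 1, Elav minus FoxL2 was -0.720 and Elav minus SoxC 1.31. Within day and medium Elav minus FoxL2 was -0.751, and within line and medium the Neural slope was -0.0702. With green and orange together FoxL2 minus SoxC was 27.1 points and Neural 0 minus other Neural 17.2. The FoxL2 orange difference was 52.4 points in the 1 dissociation with at least 10 coloured cells, 34.2 with DMSO and 71.2 untreated. The causes were not tested.

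Leaving out 1 dissociation each gave ranges of -1.0 to -0.628 (Elav minus FoxL2, all cells), -0.256 to 0.318 (Elav minus SoxC, Neural cells), -0.767 to 0.587 and -1.39 to 0.840 (gates, all and Neural cells), -0.0729 to 0.00211 (slope), 1.67 to 5.95 (F of line by day), -0.483 to 0.220 and 0.621 to 2.80 (DMSO minus untreated, all and Neural cells), 3.68 to 7.06 (medium difference between lines, Neural cells), 44.3 to 53.2 (FoxL2 orange) and -0.0550 to 0.0965 (half-plates). No paired analysis was possible between lines, days or media because each dissociation number occurs in 1 group only, whereas gates and colours were compared within dissociations. For DMSO minus untreated, leaving out the only DMSO dissociation of a line and day also dropped its untreated dissociations. Small cell numbers limit every share, and SoxC has no untreated dissociation.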
